A study of Saccharomyces cerevisiae with 14 samples.

Results

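The 9 genes described here encode the enzymes that carry budding yeast from pyruvate to ethanol and acetate: the pyruvate decarboxylases PDC1, PDC5 and PDC6, the alcohol dehydrogenases ADH1, ADH3, ADH4 and ADH5, and the acetaldehyde dehydrogenases ALD6 and ALD4. They were taken by name from 5871 nuclear protein-coding genes measured in 5 strains of Saccharomyces cerevisiae. No measured value was used as a filter, but earlier results of these data were known when the genes were chosen. Nucleosomes were mapped by MNase-seq, in which micrococcal nuclease cuts the linker DNA between nucleosomes and the protected fragments are sequenced. All strains had the BY4741 background, grew in the glucose-rich medium YPD at 30 °C to an OD600 of 0.8 and were crosslinked with 1% formaldehyde for 15 min. They differed in SNF2, the ATPase subunit of the remodeller SWI/SNF: unaltered in WT (3 samples), altered in dAT (3 samples) and dSnAC (3 samples), whose names are read as loss of the AT-hook region and of the SnAC domain, catalytically dead through K798A in CD (3 samples), and deleted in dSnf2 (2 samples). The labels say nothing of how many clones stood behind a strain.

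Yeast growing on glucose sends most of its pyruvate to ethanol even in air. Pyruvate decarboxylase splits pyruvate into acetaldehyde and carbon dioxide, alcohol dehydrogenase reduces acetaldehyde to ethanol and so restores the NAD+ that glycolysis needs, and aldehyde dehydrogenase diverts some acetaldehyde to acetate for acetyl-CoA and NADPH. Each step has a main gene used during growth on glucose, PDC1, ADH1 and ALD6, and minor, stress-induced or mitochondrial isozymes. Strongly transcribed glycolytic genes are known for promoters bound by activators and kept poor in nucleosomes, and SWI/SNF is known for sliding and evicting promoter nucleosomes.

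Each strain had 1 pooled list of nucleosome calls, of 63263 (dSnAC) to 63471 (CD) calls on the nuclear chromosomes. The median call held 514 (dSnAC) to 1030 (WT) reads, taking the smallest step of the deposited occupancy as 1 read. Occupancy is given below relative to that median call, so 1 is a typical nucleosome, and positions are bp from the start codon. With no replicate values, the error given is a 95% Poisson interval that covers counting error only, no p-value exists, and differences are described by size. A log2 ratio of mutant over WT, computed as log2((mutant + 0.1) / (WT + 0.1)), of at least 0.58 in either direction, about 1.5-fold, is called past the size rule. The 4 mutants share the 1 WT list, so an odd value in WT would appear in all 4 ratios. In no list did neighbouring dyads, the nucleosome centres, lie closer than 148 bp, so that an interval narrower than 296 bp could hold no further call, and 99.2% to 99.3% of all intervals were that narrow. Over the SNF2 coding region itself occupancy in dSnf2 was 0.844% of WT.

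The regions of the 9 genes, from -1000 bp of the start codon to 300 bp past the stop codon, held 130 to 135 calls per strain. Their coordinates (R64) were PDC1 (YLR044C, chromosome XII, 232390 to 234081, minus strand), PDC5 (YLR134W, chromosome XII, 410723 to 412414, plus strand) and PDC6 (YGR087C, chromosome VII, 651290 to 652981, minus strand). The alcohol dehydrogenases lay at ADH1 (YOL086C, chromosome XV, 159548 to 160594, minus strand), ADH3 (YMR083W, chromosome XIII, 434788 to 435915, plus strand), ADH4 (YGL256W, chromosome VII, 15159 to 16307, plus strand) and ADH5 (YBR145W, chromosome II, 533762 to 534817, plus strand). The aldehyde dehydrogenases were ALD6 (YPL061W, chromosome XVI, 432588 to 434090, plus strand) and ALD4 (YOR374W, chromosome XV, 1039840 to 1041399, plus strand). Several isozyme genes are close relatives, and the sources used here do not say how reads matching more than 1 copy were placed. A call about 270 bp into PDC1 (0.0864 to 0.158) and one 310 to 377 bp into PDC5 (0.00455 to 0.0623) were weak in all 5 strains. Whether read placement had a part in these calls was not tested, and occupancy inside these genes is uncertain in level.

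In WT the promoters of the main genes were less occupied than those of most of the minor ones. Mean occupancy from -300 to -1 bp was 0.327 at PDC1, 0.481 at ADH1 and 0.592 at ALD6. Among the minor genes it was 0.58 at ADH3, 0.639 at ADH5, 0.826 at ALD4, 0.851 at ADH4, 0.952 at PDC6 and 1.06 at PDC5, beside a median of 0.767 over all genes. PDC1 and ADH1 lay below all minor genes, and ALD6 lay between ADH3 and ADH5 with counting intervals that overlapped both. ALD4 and ADH4 could not be ordered either, while PDC6 and PDC5 were each above the gene before them beyond counting error.

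**Figure D1:**
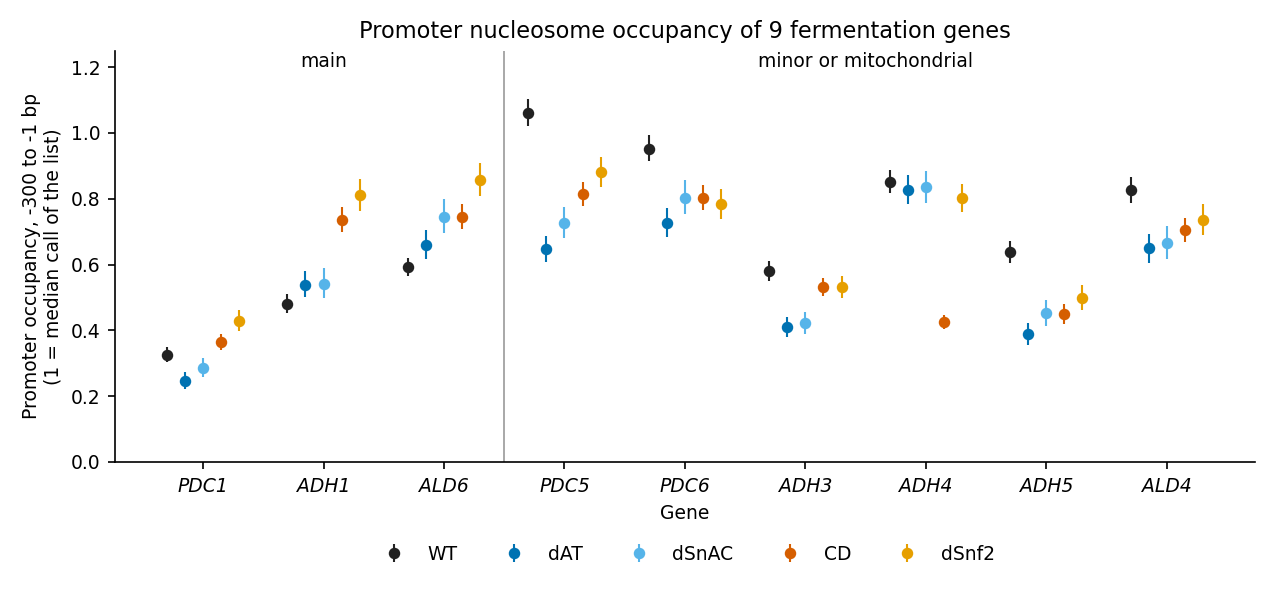
Promoter occupancy of the 9 genes in the 5 strains. Each point is the mean over the bases between -300 and -1 bp in 1 pooled list (1 is the median call), and bars are 95% Poisson intervals. In WT the 3 main genes lie between 0.327 and 0.592 and the 6 minor genes between 0.58 and 1.06, whereas in dSnf2 both groups reach above 0.8.

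In the mutants the main promoters were on average as occupied as in WT or more so, and the minor ones less, with PDC1 in dAT and dSnAC as the exception among the main genes. The mean occupancy of the 3 main promoters was 0.466 in WT against 0.482 (dAT), 0.524 (dSnAC), 0.615 (CD) and 0.699 (dSnf2). For the 6 minor promoters it was 0.818 in WT and 0.608, 0.651, 0.621 and 0.705 in the dAT, dSnAC, CD and dSnf2 lists. The group means lay far apart in WT and nearly together in CD and dSnf2. The mean log2 ratio was -0.01, 0.10, 0.31 and 0.48 over the main genes and -0.39, -0.30, -0.36 and -0.19 over the minor ones in dAT, dSnAC, CD and dSnf2. The main genes thus exceeded the minor ones by 0.38 ± 0.08 (dAT), 0.40 ± 0.08 (dSnAC), 0.67 ± 0.07 (CD) and 0.66 ± 0.07 (dSnf2), with counting half-widths. Each of the 3 main genes lay above all 6 minor genes in CD and in dSnf2, and 2 of the 3 did in dAT and in dSnAC. The median of all genes was also below WT, at -0.30 (dAT), -0.23 (dSnAC), -0.15 (CD) and -0.08 (dSnf2). PDC1 was at -0.30 in dAT, near that median, and at -0.15 in dSnAC, above it. The main genes also had the lower WT occupancy, and the part of that starting level in the ratio was not tested. The group means include ALD6 in every mutant and ADH4 in CD, whose promoter values rest in part on calls without a partner, as described below.

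The same held within each enzyme. PDC1 exceeded the mean of PDC5 and PDC6 by 0.20 (dAT), 0.21 (dSnAC), 0.41 (CD) and 0.56 (dSnf2). ADH1 exceeded the mean of ADH3, ADH4 and ADH5 by 0.49, 0.42, 0.99 and 0.81 in the same order. ALD6 exceeded ALD4 by 0.44, 0.56, 0.49 and 0.62. All 12 differences were larger than their counting half-widths, which were at most 0.15. The ADH1 difference in CD includes ADH4 at -0.85, a value that rested on 1 call without a partner, as described below. The ALD6 values include a mutant call at -68 to -93 bp, where the WT interval had no room for one.

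Few single promoters went past the size rule. In dAT 2 of the 9, PDC5 and ADH5, were lower, where 11% of all genes were. In dSnAC none was past the rule in either direction, beside 4.07% of genes, and the members ranged from -0.49 at PDC5 to 0.29 at ALD6. In CD only ADH4 was lower, beside 0.63% of genes, and in dSnf2 only ADH1 was higher, beside 0.715% of genes. The median gene itself was below WT, by log2 values of -0.30 (dAT), -0.23 (dSnAC), -0.15 (CD) and -0.08 (dSnf2). Against that median 3 members stood higher in dAT (ADH1, ALD6 and ADH4), and 5, 4 and 4 did in dSnAC, CD and dSnf2. Taken relative to it, PDC5 (-0.34) and ADH5 (-0.30) in dAT were no longer past the rule, and ADH1 in CD was (0.68). With a pseudocount of 0.25 in place of 0.1, the ratios of PDC5 in dAT (-0.55), ADH5 in dAT (-0.48) and ADH1 in dSnf2 (0.54) fell short of the rule. The members' own medians, -0.31, -0.22, -0.20 and -0.11, were near those values.

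**Figure D2:**
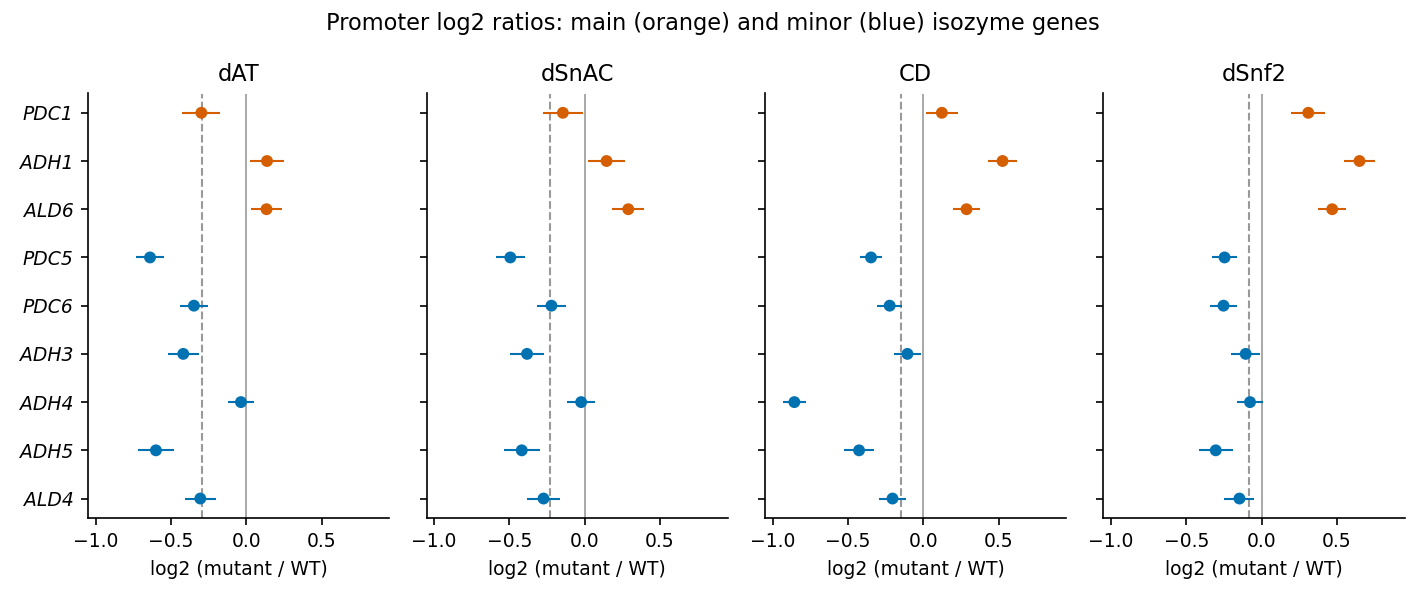
Promoter log2 ratios, mutant over WT, for the 3 main (orange) and 6 minor (blue) genes in each mutant. Bars are 95% counting intervals, the solid line is 0 and the dashed line is the median of 5871 genes. In CD and dSnf2 all 3 orange points lie to the right of all blue ones, and ADH4 in CD stands alone at -0.85.

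PDC1, the main pyruvate decarboxylase gene, had a promoter poor in nucleosomes over a long stretch, and this stretch was more occupied in CD and dSnf2. Between -600 and -300 bp occupancy was 0.0961 in WT against 0.113 (dAT), 0.136 (dSnAC), 0.195 (CD) and 0.202 (dSnf2). It was lowest in WT and highest in the CD and dSnf2 lists, with log2 ratios of 0.59 ± 0.11 and 0.62 ± 0.11, higher than all but 1.81% and 1.57% of genes. The size rule for this stretch was passed upward by 1.91% of genes in CD and 1.81% in dSnf2. These occupancies were near the pseudocount of 0.1, and other pseudocounts were not tried for this stretch. The dAT, dSnAC and CD lists held a call at -458, -455 and -456 bp (0.0691, 0.0798 and 0.136) without a WT partner. The WT interval there, of 291 bp, had no room for one, and the part of this limit in the ratios was not tested. A call at -294 bp, which reaches into this stretch, had an occupancy of 0.265 in WT and 0.308, 0.362, 0.476 and 0.605 in the dAT, dSnAC, CD and dSnf2 lists. Its dyad lay at -304, -307, -308 and -316 bp in the mutants, farther from the gene than in WT. Closer to the gene, from -300 to -1 bp, occupancy was 0.327 in WT against 0.247 (dAT), 0.286 (dSnAC), 0.365 (CD) and 0.429 (dSnf2), so dAT and dSnAC lay under WT and CD and dSnf2 over it.

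Farther upstream a PDC1 call was also stronger and nearer the gene in each mutant. In WT it lay at -804 bp with an occupancy of 0.668. It lay at -750 bp with 0.823 in dAT, at -740 bp with 1.01 in dSnAC and at -736 bp with 1.28 in CD. The dSnf2 list held a call of 1.39 at -729 bp, just beyond the 73 bp within which dyads were matched. All mutant values exceeded WT, and the order from dAT to dSnf2 was the same as at -294 bp. The end of STU2, a microtubule-binding protein gene on the same strand, reached only to -956 bp, so this call lay between the genes.

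PDC5, a minor decarboxylase gene known to be induced when PDC1 is lost or thiamine is scarce, had the most occupied promoter of the 9 in WT and was lower in every mutant. Promoter occupancy was 1.06 in WT and 0.646, 0.725, 0.814 and 0.880 in the dAT, dSnAC, CD and dSnf2 lists. The dAT value was lowest, and its log2 ratio of -0.64 ± 0.09 was past the rule, as that of 11% of genes was. The promoter call at -154 bp held 1.55 in WT against 0.893 (dAT), 1.02 (dSnAC), 1.18 (CD) and 1.24 (dSnf2), with dyads within 8 bp of WT. PDC5 was also lower past its stop codon, where occupancy from 1 to 300 bp stood at 1.11 in WT and 0.538, 0.609, 0.803 and 0.923 in the dAT, dSnAC, CD and dSnf2 lists. The log2 ratios of -0.93 in dAT and -0.77 in dSnAC were past the size rule there, and 2.03% and 1.45% of genes had lower ones.

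PDC6, a minor decarboxylase gene known for expression under sulphur limitation, was lower than WT at its promoter in each mutant. Promoter occupancy was 0.952 in WT against 0.727 (dAT), 0.803 (dSnAC), 0.802 (CD) and 0.783 (dSnf2). None was past the rule. Most genes were below WT there too, and 40.7% (dAT), 51.6% (dSnAC), 27.1% (CD) and 4.68% (dSnf2) of genes had lower ratios. PDC6 was thus near the middle of all genes in dAT and dSnAC. Over the 300 bp past the stop codon the ratios were -0.16 (dAT), -0.08 (dSnAC), 0.16 (CD) and 0.575 (dSnf2, just under the rule), smaller in size than at the promoter in all but dSnf2. Single calls around the stop codon differed more. Inside the coding region a call at 1542 bp had an occupancy of 0.641 in WT and 0.228, 0.233, 0.167 and 0.209 in the dAT, dSnAC, CD and dSnf2 lists. A call at 1870 bp, past the stop codon, had the opposite pattern, with 0.154 in WT against 0.460 (dAT), 0.484 (dSnAC), 0.662 (CD) and 0.473 (dSnf2). All 4 mutants were far lower at the first call and far higher at the second, with dyads at 1484 to 1505 bp and 1810 to 1866 bp. Between these calls WT had one of 1.03 at 1690 bp. The mutants had it at 1632 bp (0.951, dAT), 1637 bp (0.895, dSnAC), 1633 bp (0.736, CD) and 1708 bp (0.991, dSnf2). The WT call at 1870 bp lies where the annotation places the noncoding RNA SUT125, 1822 to 2126 bp from the PDC6 start codon.

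**Figure D3:**
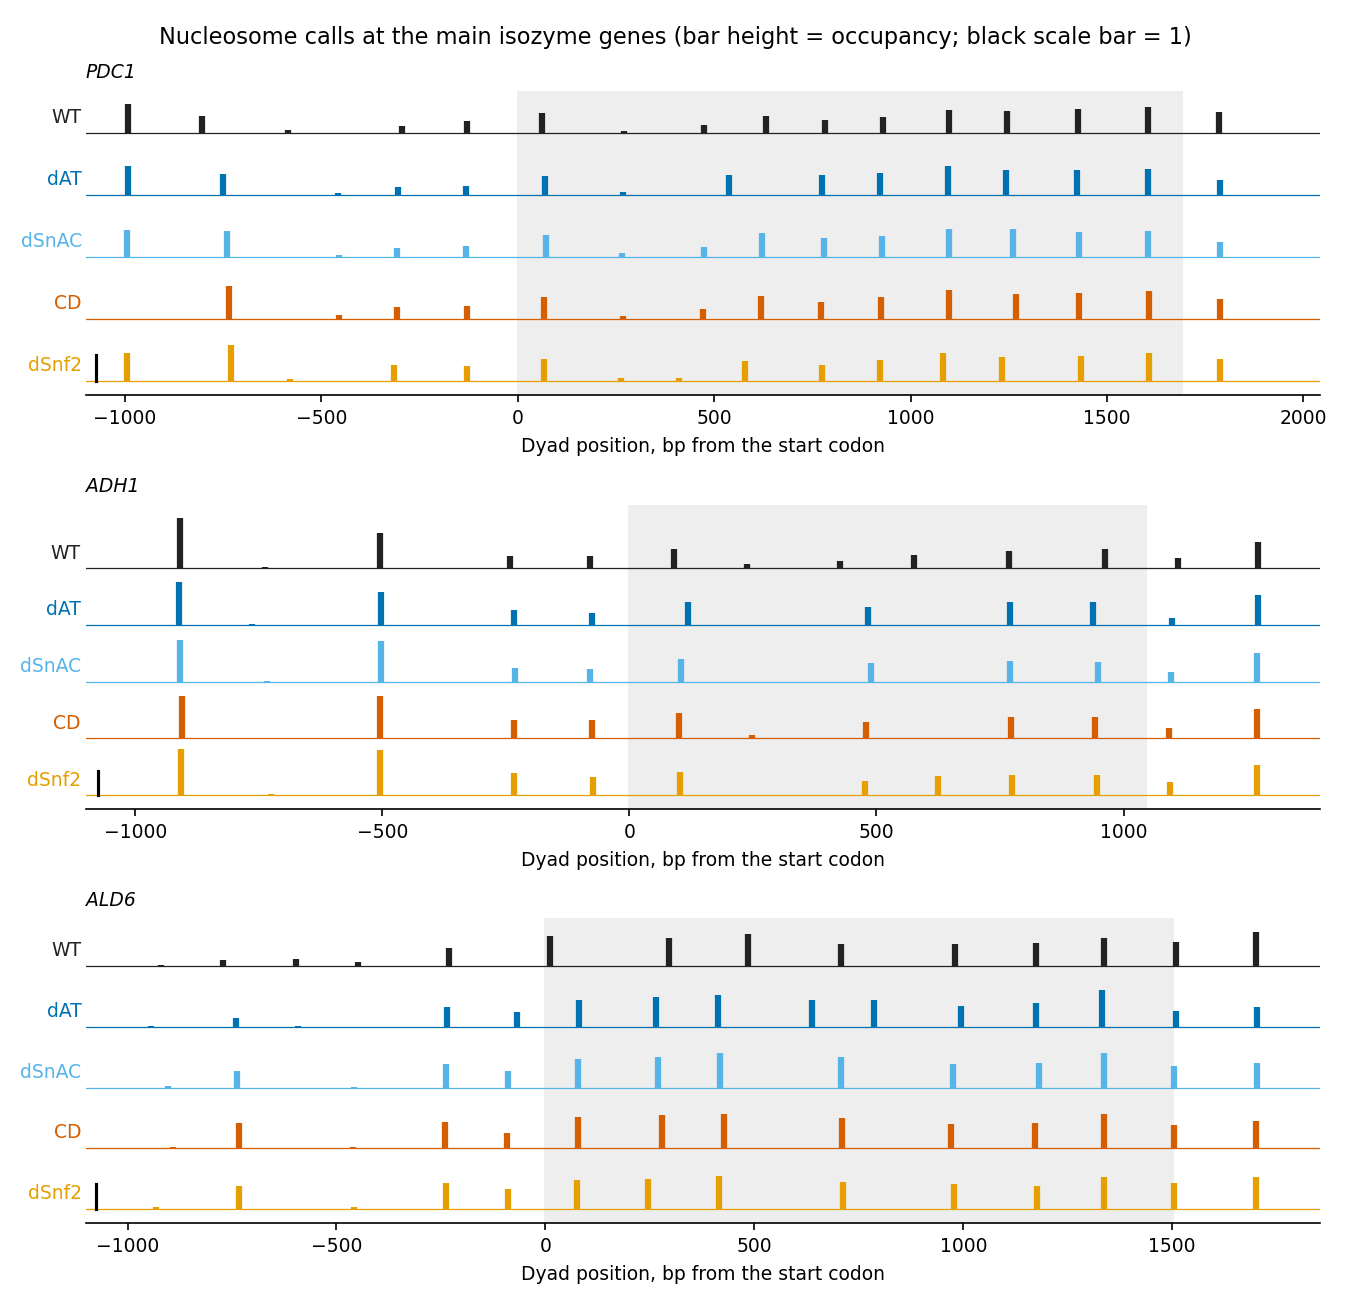
Nucleosome calls at PDC1, ADH1 and ALD6 in the 5 strains. Bars stand at dyad positions in bp from the start codon, their height is the occupancy on a common scale with the scale bar as 1, and grey marks the coding region. The PDC1 call at -804 bp and the ALD6 call at -771 bp are taller and nearer the gene in the mutants, and ALD6 has a further call between -93 and -68 bp in all 4 mutants.

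ADH1, the main gene for reducing acetaldehyde to ethanol, had the promoter with the highest ratio of the 9 in CD and dSnf2. Occupancy from -300 to -1 bp stood at 0.481 in WT and 0.539, 0.542, 0.737 and 0.811 in the dAT, dSnAC, CD and dSnf2 lists. WT was lowest, and the intervals of CD and dSnf2 lay above those of the other 3 strains. The log2 ratios were 0.14 ± 0.11 (dAT), 0.14 ± 0.12 (dSnAC), 0.53 ± 0.10 (CD) and 0.65 ± 0.10 (dSnf2), and only 0.647% and 0.494% of genes had higher ones in CD and dSnf2. The call at -241 bp held 0.520 in WT against 0.625 (dAT), 0.584 (dSnAC), 0.785 (CD) and 0.926 (dSnf2), and the one at -79 bp held 0.511, 0.501, 0.539, 0.757 and 0.768 in the same order. In CD and dSnf2 both calls were above WT.

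The ADH1 promoter nucleosomes were also placed more narrowly in the mutants. The SD of dyad positions within the call at -504 bp was 30.6 bp in WT and 21.3 bp, 18.2 bp, 17.0 bp and 18.0 bp in the dAT, dSnAC, CD and dSnf2 lists. WT was widest, and at most 0.608% of matched calls had a larger drop in any mutant. At -241 bp the SD was 33.1 bp in WT and 24.1 to 25.4 bp in the mutants, and at -79 bp it was 37.2 bp in WT and 26.9 to 31.3 bp. Inside the coding region a weak WT call at 427 bp (0.288) was matched by a stronger one 50 to 61 bp farther in, of 0.752 (dAT), 0.770 (dSnAC), 0.684 (CD) and 0.613 (dSnf2). The WT call next to it, 0.555 at 575 bp, had no partner in dAT, dSnAC or CD, whose intervals of 288, 282 and 294 bp there had no room for one.

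ADH4 encodes an alcohol dehydrogenase unrelated in sequence to the others and is known to be induced when zinc is scarce. Its promoter occupancy was 0.851 in WT against 0.828 (dAT), 0.835 (dSnAC), 0.426 (CD) and 0.801 (dSnf2). The CD strain alone was low, with a log2 ratio of -0.85 ± 0.08, and 0.0852% of genes were lower. This rested on 1 call at -174 bp, of 0.982 in WT and 0.840, 0.872 and 0.907 in dAT, dSnAC and dSnf2, for which the CD list had none. In CD the flanking calls lay at -298 and -6 bp, 292 bp apart, so no further call fitted between them. In WT the flanking calls lay at -322 and -9 bp. Their occupancies in CD, 0.682 and 0.960, were near the 0.629 and 0.954 of WT. Every WT call of at least 0.5 without a partner, 1476 genome-wide in CD, lay in such an interval, and the part of this spacing limit in the ADH4 value was not tested. The promoter ratios of ADH4 in the other mutants were -0.04 in dAT, -0.02 in dSnAC and -0.08 in dSnf2, all within their counting half-widths of 0.

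ADH3, the mitochondrial alcohol dehydrogenase gene that takes part in moving reducing equivalents across the mitochondrial membrane, had 1 displaced call at the start codon. Its promoter occupancy was 0.58 in WT and 0.409, 0.422, 0.533 and 0.532 in the dAT, dSnAC, CD and dSnf2 lists. The dAT and dSnAC lists were lowest, with ratios of -0.42 and -0.38 that did not pass the rule, and 29.4% and 19.5% of genes had lower ones. The call at the start codon lay at -29 bp in WT and 28 to 32 bp farther into the gene in all 4 mutants, at nearly the same occupancy (1.06 in WT, 0.915 to 1.08 in the mutants). Less of its footprint thus lay in the promoter window in the mutants, so the promoter ratios include this shift. Of the matched ADH3 calls 8.33% (dAT), 8.33% (dSnAC), 23.1% (CD) and 7.69% (dSnf2) were displaced by 20 bp or more. Over all matched calls the shares were 9.19%, 8.67%, 8.84% and 9.01%, so only CD was above them. The next WT call, 0.821 at 135 bp, had no partner in any mutant. The mutant intervals there were 289 or 290 bp and had no room for a call, as at ADH4.

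ADH5, a minor cytosolic alcohol dehydrogenase gene, also had its lowest promoter occupancy in dAT. It was 0.639 in WT against 0.388 (dAT), 0.453 (dSnAC), 0.450 (CD) and 0.498 (dSnf2). All mutants were below WT and dAT was lowest, with a log2 ratio of -0.60 ± 0.12. The call at -116 bp had its dyad within 4 bp of WT in each mutant and held 1.23 in WT and 0.752, 0.837, 0.918 and 1.02 in the dAT, dSnAC, CD and dSnf2 lists. In the coding region the WT calls at 62 and 230 bp had 1 call in their place in CD (118 bp) and in dSnf2 (120 bp), again in intervals without room for a second. Coding region occupancy in those strains, 0.694 and 0.679, was below the 0.812 of WT, by log2 values of -0.20 and -0.23.

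**Figure D4:**
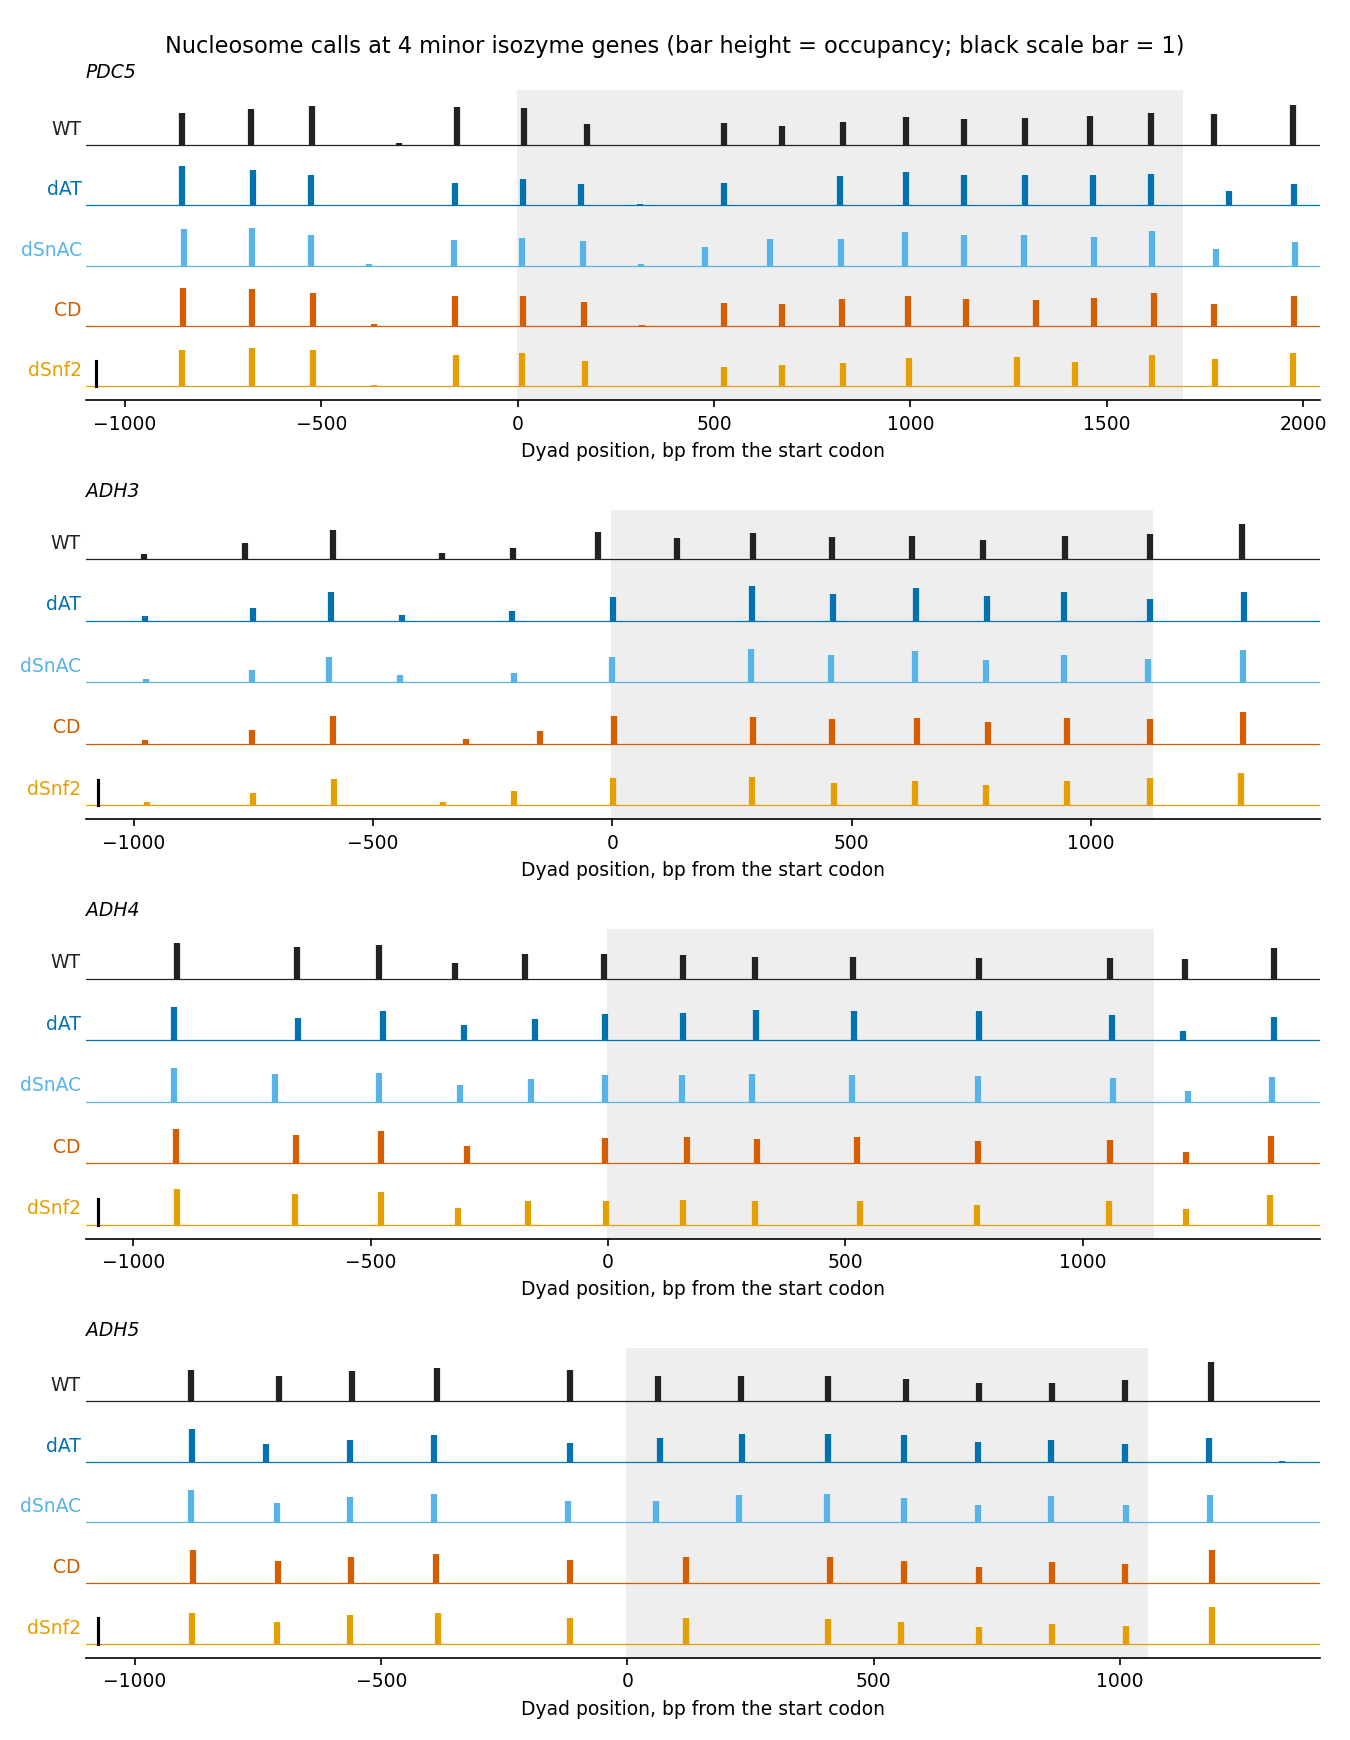
Nucleosome calls at PDC5, ADH3, ADH4 and ADH5 in the 5 strains, drawn with bars at dyad positions in bp from the start codon, height as occupancy and grey for the coding region. The call of WT ADH4 at -174 bp is missing in CD, the ADH3 call at 135 bp is missing in all 4 mutants, and the PDC5 call at -154 bp is shorter in each mutant than in WT.

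ALD6, the main cytosolic acetaldehyde dehydrogenase gene and a source of acetate and NADPH, differed from WT in several calls upstream, some stronger and some weaker. Between -1000 and -600 bp occupancy was 0.161 in WT against 0.161 (dAT), 0.262 (dSnAC), 0.390 (CD) and 0.362 (dSnf2). The CD and dSnf2 lists were past the rule, with ratios of 0.91 ± 0.10 and 0.82 ± 0.11, beside 1.35% and 1.31% of genes. Between -600 and -300 bp WT was instead highest, with 0.173 in WT and 0.0457, 0.0487, 0.0700 and 0.0706 in the dAT, dSnAC, CD and dSnf2 lists. All 4 mutants were past the rule there, with ratios from -0.91 to -0.68, as were 7.2% (dAT), 3.34% (dSnAC), 1.19% (CD) and 0.579% (dSnf2) of genes. The mutant values lay under the pseudocount of 0.1, so the size of these ratios depends on it, and other pseudocounts were not tried for this stretch. From -300 to -1 bp it was 0.592 in WT against 0.659 (dAT), 0.745 (dSnAC), 0.745 (CD) and 0.857 (dSnf2), with every mutant above WT and none past the rule.

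The ALD6 calls show how these stretches were made up. A call at -771 bp held 0.244 in WT and 0.367, 0.654, 1.02 and 0.926 in the dAT, dSnAC, CD and dSnf2 lists, and its dyad lay 30 to 38 bp nearer the gene in the mutants. The next call, at -597 bp, held 0.292 in WT and 0.0549 in dAT, and dSnAC, CD and dSnf2 had none. The call at -449 bp held 0.182 in WT against 0.0188 (dAT), 0.0350 (dSnAC), 0.0449 (CD) and 0.0744 (dSnf2). In every mutant the call at -771 bp was thus stronger and the one at -449 bp weaker. The call at -597 bp was weaker in dAT. Around its position the flanking calls lay at -737 and -459 bp (dSnAC), -733 and -461 bp (CD) and -734 and -459 bp (dSnf2). These intervals had no room for a further call. The part of this spacing limit in the missing call, and in the occupancy of the stretches it reaches, was not tested. The calls at -597 and -449 bp lie inside the open reading frame YPL062W, annotated from -693 to -289 bp of ALD6, and the call at -771 bp lies outside it. At the start codon WT had 1 broad call at 11 bp (1.22, SD 39.3 bp), whereas the mutants had calls at 76 to 80 bp and, in addition, at -68 bp (dAT), -89 bp (dSnAC), -93 bp (CD) and -89 bp (dSnf2). The added calls held 0.604 (dAT), 0.640 (dSnAC), 0.590 (CD) and 0.794 (dSnf2). WT had no call there, in an interval of 242 bp that had no room for one. The part of this limit in the ALD6 promoter ratios was not tested.

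ALD4, the mitochondrial acetaldehyde dehydrogenase gene that is known to be repressed by glucose, was lower on both sides of the coding region. Its promoter occupancy was 0.826 in WT and 0.649, 0.666, 0.704 and 0.736 in the dAT, dSnAC, CD and dSnf2 lists. These ratios, -0.31 to -0.15, were close to the genome medians. A weak promoter call at -238 bp held 0.176 in WT against 0.0424 (dAT), 0.0331 (dSnAC), 0.0617 (CD) and 0.123 (dSnf2). Past the stop codon, from 1 to 300 bp, occupancy was 0.786 in WT and 0.412, 0.401, 0.561 and 0.564 in the dAT, dSnAC, CD and dSnf2 lists. The dAT and dSnAC lists were lowest, with ratios of -0.79 ± 0.09 and -0.82 ± 0.09, and 5.43% and 1.00% of genes had lower ones. The end of GDH1, a glutamate dehydrogenase gene on the opposite strand, overlaps the outer edge of this stretch, from 1838 bp of the ALD4 start codon.

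**Figure D5:**
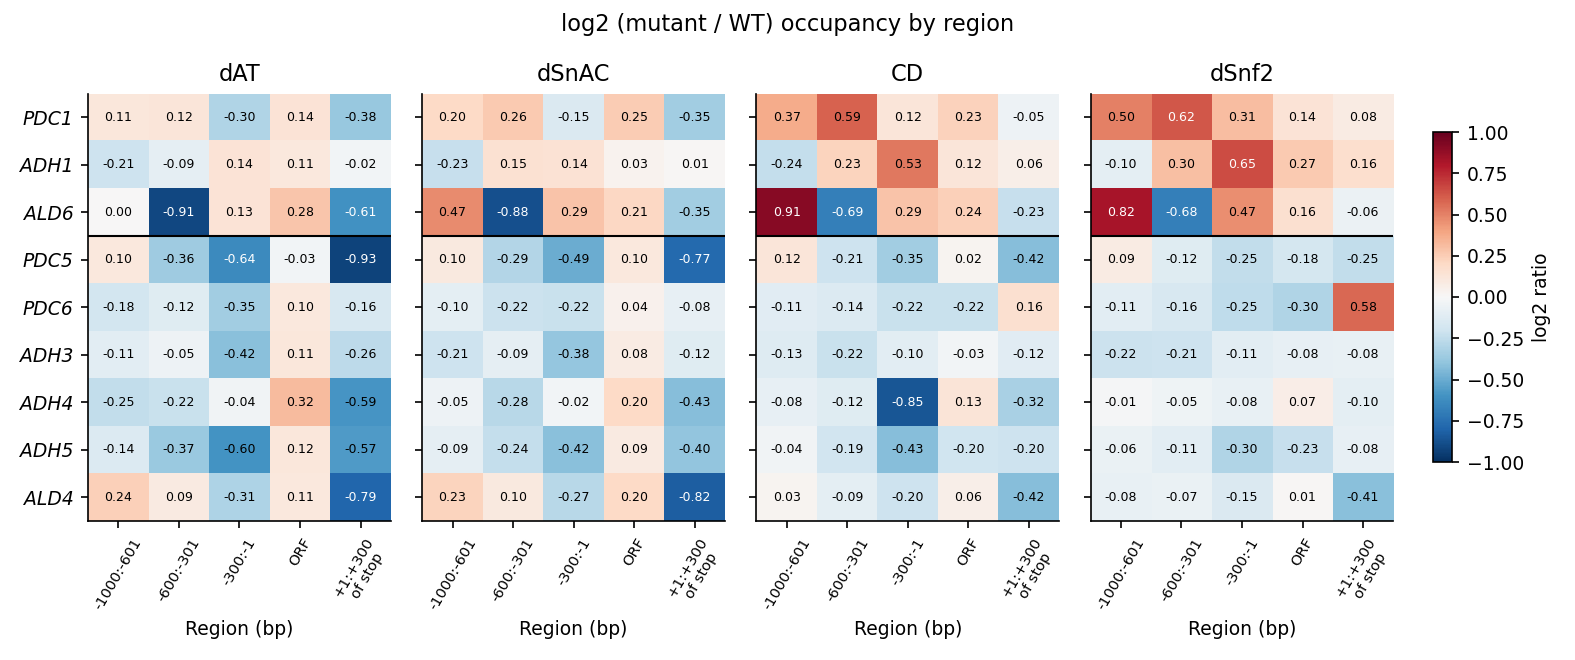
Log2 ratios of occupancy, mutant over WT, for each gene (rows, main genes above the line) in 5 regions (columns, bp from the start codon or past the stop codon) and 4 mutants. Red is higher and blue lower than WT. Upstream of ALD6 red and blue stretches adjoin in dSnAC, CD and dSnf2, and the stretch past the stop codon is blue at most genes in dAT.

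Over the coding regions no member was past the size rule in any mutant, beside 1.46% (dAT), 0.732% (dSnAC), 0.511% (CD) and 0.375% (dSnf2) of genes. Occupancy was above WT at 8 of the 9 coding regions in dAT and at 9, 6 and 5 of them in dSnAC, CD and dSnf2, beside 57.4%, 56.9%, 54.1% and 46.4% of all genes. The 3 main genes were above WT in each mutant, by log2 ratios of 0.03 (ADH1 in dSnAC) to 0.28 (ALD6 in dAT). The main minus minor difference over coding regions was 0.05 (dAT), 0.05 (dSnAC), 0.24 (CD) and 0.31 (dSnf2). Within the alcohol dehydrogenases it went the other way in dAT (-0.07 ± 0.07) and dSnAC (-0.09 ± 0.07). Between -600 and -300 bp the difference over all 9 genes was -0.12 ± 0.08 (dAT), 0.02 ± 0.08 (dSnAC), 0.21 ± 0.07 (CD) and 0.20 ± 0.07 (dSnf2). Over the coding regions, PDC6 and ADH5 were the lowest, at -0.22 and -0.20 in CD and -0.30 and -0.23 in dSnf2. At PDC6 the WT call at 1181 bp had no partner in CD, between calls at 1006 and 1288 bp. The WT call at 1012 bp had none in dSnf2, between 822 and 1111 bp. These intervals had no room for a call, as at ADH5. Over the whole gene regions 3 of 43 main and 4 of 92 minor WT calls lacked a partner in CD, and as many in dSnf2. The part of this spacing limit in the coding region differences was not tested.

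Past the stop codon 4 members were lower in dAT (PDC5, ALD4, ALD6 and ADH4), where 19.2% of genes were. In dSnAC 2 were lower (PDC5 and ALD4), beside 6.98% of genes. None was past the rule in CD, beside 2.03% of genes in either direction, or in dSnf2, beside 1.82%. PDC6 in dSnf2 was just inside it, at 0.322 in WT and 0.529 in dSnf2, and 0.835% of genes had a higher ratio.

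The share of dyads displaced by 20 bp or more was higher at the member genes than over the genome. In dAT this was 24 of 127 matched member calls (18.9%), beside 9.19% of all matched calls. In dSnAC it was 16 of 128 (12.5%) beside 8.67%, in CD 24 of 128 (18.8%) beside 8.84%, and in dSnf2 18 of 128 (14.1%) beside 9.01%. With dyads matched within 50 bp only, the member shares were 11.2%, 6.67%, 9.57% and 8.33% beside 7.07%, 6.67%, 6.69% and 6.81%, so in dSnAC no excess was left. Without calls below 0.25 the dAT and CD shares were 13.3% and 12.3% beside 8.54% and 8.45%. The displaced calls of the main genes were 12, 6, 10 and 9, out of 39, 39, 40 and 40 matched. For the minor genes these were 12 of 88, 10 of 89, 14 of 88 and 9 of 88. Calls of 1 gene are not independent, since a displaced nucleosome bounds its neighbours. WT member calls without a partner numbered 8 of 135 in dAT and 7 in each other mutant, beside 3.55%, 3.28%, 3.01% and 3.15% of all WT calls.

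Pooled over the calls of the 3 main genes, dyad positions within calls were more narrowly spread in the mutants. The median change in dyad SD, mutant minus WT, was -1.11 bp (dAT), -1.55 bp (dSnAC), -2.42 bp (CD) and -2.56 bp (dSnf2) over their matched calls. By gene these medians were also below 0 at PDC1 and ADH1 in each mutant, and at ALD6 in all but dAT, where it was 0.25 bp and 7 of 14 calls were narrower. The minor genes had medians of 0.29, 0.37, 0.75 and 0.62 bp. Over all matched calls the medians were 0.35, 0.24, -0.13 and -0.07 bp.

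Of 34 other genes around this pathway, 33 were measured, and ADH7 lay in a chromosome's outer 10 kb. Their median promoter ratio was -0.31 (dAT), -0.29 (dSnAC), -0.13 (CD) and -0.09 (dSnf2), close to the genome medians. Past the size rule 5, 3, 1 and 0 were lower in dAT, dSnAC, CD and dSnf2, and 1 was higher in CD and in dSnf2. Of all genes 11%, 3.76%, 0.63% and 0.307% were lower, and 0.528% (CD) and 0.715% (dSnf2) were higher. GPD2, a glycerol 3-phosphate dehydrogenase gene of the other route that restores NAD+, was the highest in each mutant. Its promoter occupancy was 0.320 in WT against 0.472 (dAT), 0.465 (dSnAC), 0.531 (CD) and 0.544 (dSnf2), with log2 ratios of 0.45, 0.43, 0.59 and 0.62. ACS2, the acetyl-CoA synthetase gene used on glucose, was at 0.474 in WT and 0.195, 0.222, 0.280 and 0.286 in the dAT, dSnAC, CD and dSnf2 lists, lowest of the list in dSnAC, CD and dSnf2. LPD1, for the dihydrolipoamide dehydrogenase of pyruvate dehydrogenase, was lowest in dAT at -1.03. CAT8, an activator of gluconeogenic genes, was at -0.86 in dAT and -0.76 in dSnAC, and PDX1 and PYC1, for a pyruvate dehydrogenase component and pyruvate carboxylase, were each at -0.58 in dAT.

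Genes with the promoter pattern nearest to a member's were found by Euclidean distance between log2(occupancy + 0.1) values over the 5 strains. PDC1 was nearest to RPL1B (0.18), a ribosomal protein gene with a close copy, then CHA1 (0.21) and RPS2 (0.22). ADH1 was nearest to GPM1 (0.16), the phosphoglycerate mutase gene of glycolysis, then TAT1 (0.17) and YRO2 (0.23). GPM1 promoter occupancy was 0.468 in WT against 0.572 (dAT), 0.535 (dSnAC), 0.819 (CD) and 0.833 (dSnf2). Its likeness to ADH1, low in WT and high in CD and dSnf2, follows from how it was chosen, and TAT1 and YRO2 had that pattern too. ALD6 was nearest to MOR1 (0.13), TIP1 (0.16) and OCH1 (0.16). ADH4, with its 1 low value in CD, had no close neighbour: RPS29B, GTT2 and RIM15 were at 0.35, 0.48 and 0.54.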

How the data were processed

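MNase-seq libraries of 14 samples were deposited as 5 lists of nucleosome calls, each pooling 2 or 3 samples of a strain, per the labels; 1 dAT and 1 dSnAC sample were in no list. Bowtie and the build sacCer3 are named in the submitters' processing notes. The sources used here do not name the caller. Occupancy is a coverage signal made by the authors, and positions and dyad SDs are in bp, per the file headers. The deposited conditional position, a fraction, was not used. Here, occupancies were divided by each list's median nuclear call outside the ribosomal DNA (chromosome XII, 451000 to 469000), and were whole multiples of the smallest step within 0.01 in 100% of calls. Calls were drawn as 147 bp footprints. Genes came from RefSeq assembly R64, with strand from the systematic name; 131 of 6002 in the outer 10 kb of chromosomes were left out. A WT and a mutant dyad were paired where each was the other's nearest, at most 73 bp away.

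All 9 genes are named, with pathway genes past 0.58 or at an extreme, and the 3 nearest genes by pattern. Most calls described differed by 0.58 (log2) or 20 bp in some mutant or lacked a partner there. Others are given for their dyad SD, for low occupancy in every strain or as neighbours of such calls. The genes, lists and rules were chosen with earlier results of these data known. With 1 list per strain nothing could be tested and p-values are absent. Python 3.11.15, numpy 2.4.6, pandas 2.3.3 and scipy 1.17.1 were used, and the code was tested on simulated data. No genome sequence was used here, so the planned promoter motif search was not run. Alternatives in scaling, pseudocount, window, footprint, size rule, weak calls and match distance were tried.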

Additional observations from a re-analysis of the deposited data

How the results depend on the processing

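No promoter ratio past the size rule and no main minus minor difference changed direction under the alternatives run, although taking ratios relative to the median gene turned some small negative ratios positive. The count of members past the size rule was 0 in dAT, CD and dSnf2 under a size rule of 1. In dAT it was 1 with division by the mean call, a window from -400 bp or narrower footprints, and 0 relative to the median gene or with a pseudocount of 0.25. In CD it was 2 relative to the median gene and 0 without ADH4, an alternative chosen after seeing the data. In dSnf2 it was 0 with a pseudocount of 0.25. The main minus minor difference was 0.30 in dAT for a window from -200 bp, 0.56 in CD and 0.55 in dSnf2 with a pseudocount of 0.25, and 0.57 in CD without ADH4. With dyads matched within 50 bp the displaced dyads were 13 (dAT), 8 (dSnAC), 11 (CD) and 10 (dSnf2), a limit that by construction drops shifts over 50 bp. Without calls below 0.25 they were 15 in dAT and 14 in CD. Where a cause is not named, the cause was not tested. With 1 pooled list per strain, differences between strains cannot be told apart from differences between cultures, and the widths of depleted regions moved with the definition in 20 of 45 cases, so none is given above. No paired analysis was possible because each strain has 1 pooled list and no replicate values.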
